A study of Mus musculus with 24 samples.

Results

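Transcripts of 8 genes are described here: Tmprss4, 5 further trypsin-like serine proteases (Tmprss2, St14, Prss8, Prss22 and Prss27) and the inhibitors Spint1 and Spint2. They are 8 of the 47643 genes in each count file, found by symbol after matching the Ensembl mouse identifiers, and 7 of them are among the 10563 genes that passed the filter on low counts. Prss27 did not pass. The family was gathered around Tmprss4, which was selected on its differences between groups of these same libraries; which contrast was used is not recorded. The values of Tmprss4 are therefore given as a description, with standard errors (SE) and no test. The other members were listed with it for their function, with earlier results of these data known.

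Organoids are small cultures in which tissue stem and progenitor cells form rounded epithelial bodies, here in Matrigel and from the salivary glands of C57BL/6 mice. Glands were collected 14 or 90 days after irradiation (IR) or a sham procedure, and organoids of passage 1 and passage 2 were sequenced, which made 8 groups of 3 libraries. All groups, sham included, were grown in DMEM-12 with antibiotics, Glutamax, N2, EGF, FGF2, insulin, dexamethasone and the ROCK inhibitor Y-27632. The labels name no transgene. The sources used here do not give the radiation dose or the age and sex of the mice. Nothing says that the 3 libraries of a group stem from different animals or cultures. P-values therefore reflect the spread between the libraries at hand, and that spread may be technical.

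Membrane-anchored serine proteases cut other proteins at the epithelial surface, among them sodium channel subunits, protease-activated receptors and adhesion proteins. They are made as inactive precursors that other proteases, or they themselves, cut into the active form. Matriptase (the product of St14) and prostasin (Prss8) activate each other in many epithelia, and the Kunitz-type inhibitors HAI-1 (Spint1) and HAI-2 (Spint2) hold both in check. Tmprss4 and Tmprss2 belong to the type II transmembrane family, whose protease domain faces outward. TMPRSS2 is best known as an androgen-regulated gene and for activating viral spike proteins, and Tmprss4 can activate the epithelial sodium channel when both are expressed in cells. Prss22 and Prss27 belong to the tryptase-like branch. In salivary ducts such proteases lie on the surface that takes sodium back from saliva.

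The proteases share the stretch that holds the catalytic serine. It is shown so that the relation among the members can be read in their own coding bases. Each line gives 33 coding bases, 5′ to 3′ on the sense strand, from the mouse GENCODE vM21 transcript (GRCm38) with the longest reading frame, and the capitals mark the codon of that serine.

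Tmprss4: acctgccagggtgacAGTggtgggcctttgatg

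Tmprss2: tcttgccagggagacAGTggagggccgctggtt

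St14: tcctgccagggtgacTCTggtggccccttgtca

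Prss8: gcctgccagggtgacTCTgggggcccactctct

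Prss22: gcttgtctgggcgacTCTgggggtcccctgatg

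Prss27: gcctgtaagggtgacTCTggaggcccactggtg

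The serine codon is AGT in Tmprss4 and Tmprss2 and TCT in the other 4 proteases. Over the 33 bases, 25 were the same in Tmprss2 as in Tmprss4, 25 in St14, 23 in Prss27 and 22 each in Prss8 and Prss22. Prss22 and Prss27 are near neighbours in the RefSeq annotation of GRCm38, with 3 genes between them. The stretches differ enough between members that the bases shown are not copies of one another. QuantSeq reads start near the 3′ end of transcripts; whether any lie in this stretch was not checked.

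The libraries held 1151608 to 3189466 counts on genes. Levels are given in CPM, the counts of a gene scaled to a common library size with TMM factors, and 1 count was worth 0.259 to 0.945 CPM. Because only 3′ ends were read, a count does not grow with gene length, so CPM levels are set beside each other between genes. How fully the reads of each gene were assigned to it is not known, so comparisons between genes are approximate. Epcam, Cdh1, Krt8 and Krt18, which mark epithelium, had counts in all 24 libraries, while no marker of mesenchyme (7 genes), leukocytes (6) or endothelium (5) passed the filter. Their highest values in any library were 3.48, 7.69 and 1.54 CPM, and Pdgfrb and Col3a1 were at 0 in all. Gm42418, a predicted gene at a ribosomal RNA repeat, took 11.8% to 29.0% of a library. In 3 libraries its share stood apart from the group median: day 90 passage 1 sham replicate 1 (28.6% against 15.9%), day 90 passage 2 IR replicate 1 (13.5% against 23%) and day 14 passage 2 IR replicate 3 (17.2% against 26.5%). Differences of IR from sham that rest on these libraries are given with and without them, and other values where a sign or a call changed. The numbers that the labels give to day 90 IR replicates differ between passages from those in the submitted file names. A replicate number there names a library and is not used to pair.

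St14 was the most abundant member, with a mean of 137 CPM over the 24 libraries and a range of 76.4 to 180 CPM. Tmprss4 came next, with a mean of 82.8 CPM and a range of 22.2 to 179 CPM, so its highest library held 8.06 times the level of its lowest, against 2.36 times for St14. The inhibitors followed, Spint1 with a mean of 56.1 CPM and Spint2 with 39.7 CPM. Prss8 averaged 22.4 CPM, Tmprss2 19.7 CPM and Prss22 11.5 CPM. Prss27, known as marapsin or pancreasin, had 0 to 4 counts in a library and 41 counts in all 24, with 4 libraries at 0. A count of 0 allows up to 3 counts, which is 0.776 to 2.83 CPM depending on the library and covers counting error only. Prss27 was not tested. Its group means ran from 0.29 CPM (day 14 passage 2 sham, 2 counts in all) to 1.58 CPM (day 14 passage 1 IR, 8 counts).

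Tmprss4 was higher after irradiation at day 14 in passage 1 and lower after irradiation at day 90 in both passages. In day 14 passage 1 the sham libraries had 41.2, 34.3 and 43.6 CPM and the IR libraries 176, 132 and 69.4 CPM. All IR libraries lay above all sham libraries, and replicate 3 was the nearest to them. The IR mean was 3.15 times the sham mean in the fit (log2 fold change 1.66, SE 0.27).

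In day 90 passage 2 the order was the opposite. The sham libraries had 148, 141 and 179 CPM, the highest set of the series, and the IR libraries 58.0, 51.4 and 53.1 CPM. The sets were far apart, each with little spread (156 ± 20.1 and 54.2 ± 3.45 CPM, SD, n = 3), and the log2 fold change was -1.52 (SE 0.26), a 2.87-fold lower level. In day 90 passage 1 the sham libraries had 85.8, 93.3 and 88.2 CPM and the IR libraries 22.2, 43.0 and 52.9 CPM, again without overlap, with a log2 fold change of -1.20 (SE 0.27). In day 14 passage 2 the sham libraries (74.5, 76.8 and 95.6 CPM) and the IR libraries (66.5, 92.2 and 69.2 CPM) overlapped, and the log2 fold change was -0.12 (SE 0.26). In bulk RNA, fewer cells that express a gene and less RNA of it per cell cannot be told apart, and that holds for every value here.

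**Figure D1:**
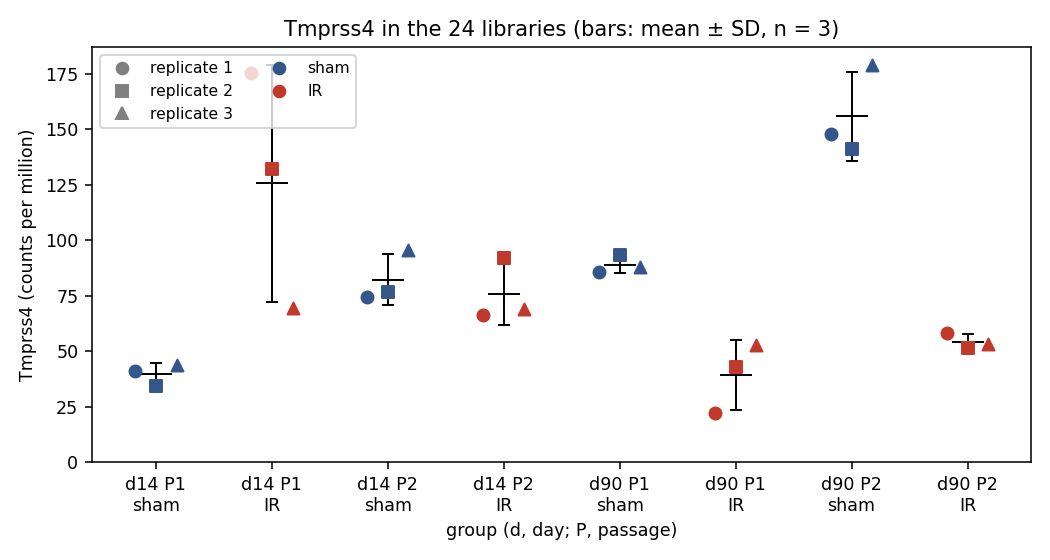
Tmprss4 in CPM (y axis) in each of the 24 libraries, by group (x axis; d, day; P, passage), with blue for sham, red for IR, symbols for replicates and bars for mean ± SD. IR libraries stand above sham at day 14 in passage 1 (69.4 to 176 against 34.3 to 43.6 CPM) and below sham at day 90 in both passages.

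The difference between IR and sham had opposite signs at the 2 days in passage 1, and the same sign at both in passage 2. In passage 1 the log2 fold change at day 90 was lower than that at day 14 by a value of -2.85 (SE 0.39), and in passage 2 by -1.40 (SE 0.37). With passage, the log2 fold change of IR moved by -1.78 (SE 0.38) at day 14 and by -0.32 (SE 0.37) at day 90. Each of these values combines 4 groups, and each group also enters one of the fold changes above, so they are not separate evidence.

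The sham groups also differed among themselves. From passage 1 to passage 2 the sham mean went from 39.7 to 82.3 CPM at day 14 (log2 fold change 1.05, SE 0.27) and from 89.1 to 156 CPM at day 90 (0.81, SE 0.25). From day 14 to day 90 the log2 fold change in sham was 1.16 (SE 0.27) in passage 1 and 0.92 (SE 0.26) in passage 2, with no overlap between libraries in any of these 4 sham comparisons. In IR organoids the day went the other way: from 126 to 39.3 CPM in passage 1 (log2 fold change -1.69, SE 0.28) and from 76.0 to 54.2 CPM in passage 2 (-0.48, SE 0.26). Passage 2 IR was below passage 1 IR at day 14 (-0.73, SE 0.26) and above it at day 90 (0.48, SE 0.28), with overlapping libraries both times. Ordered by mean, the groups ran from day 90 passage 2 sham (156 CPM) through day 14 passage 1 IR (126), day 90 passage 1 sham (89.1), day 14 passage 2 sham (82.3), day 14 passage 2 IR (76.0), day 90 passage 2 IR (54.2) and day 14 passage 1 sham (39.7) to day 90 passage 1 IR (39.3). Neighbours in this order overlapped, except on both sides of day 90 passage 2 IR (51.4 to 58.0 CPM), which overlapped neither the group above nor the one below it. The sham value that an IR group is set against therefore ran from 39.7 to 156 CPM.

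The other 6 tested members had a higher mean after IR in each of the 4 comparisons of IR with sham, 24 of 24 values in all, although those of St14 and Spint1 at day 14 passage 2 fell below 0 when some libraries were left out. Of all tested genes, 15.5% were higher in all 4 comparisons. The median log2 fold change of the 6 was 0.49 at day 14 passage 1, 0.34 at day 14 passage 2, 0.49 at day 90 passage 1 and 0.69 at day 90 passage 2, where the median over all tested genes was -0.01, 0.01, 0.00 and 0.01. None of the 24 values passed the test across all genes (edgeR quasi-likelihood test, Benjamini-Hochberg adjusted p under 0.05, two-sided), so none is a called change; they ran from 0.12 (St14) to 1.59 (Prss22), both at day 14 passage 2. Tmprss4 shared their sign only at day 14 in passage 1; the difference between it and them was not tested.

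**Figure D2:**
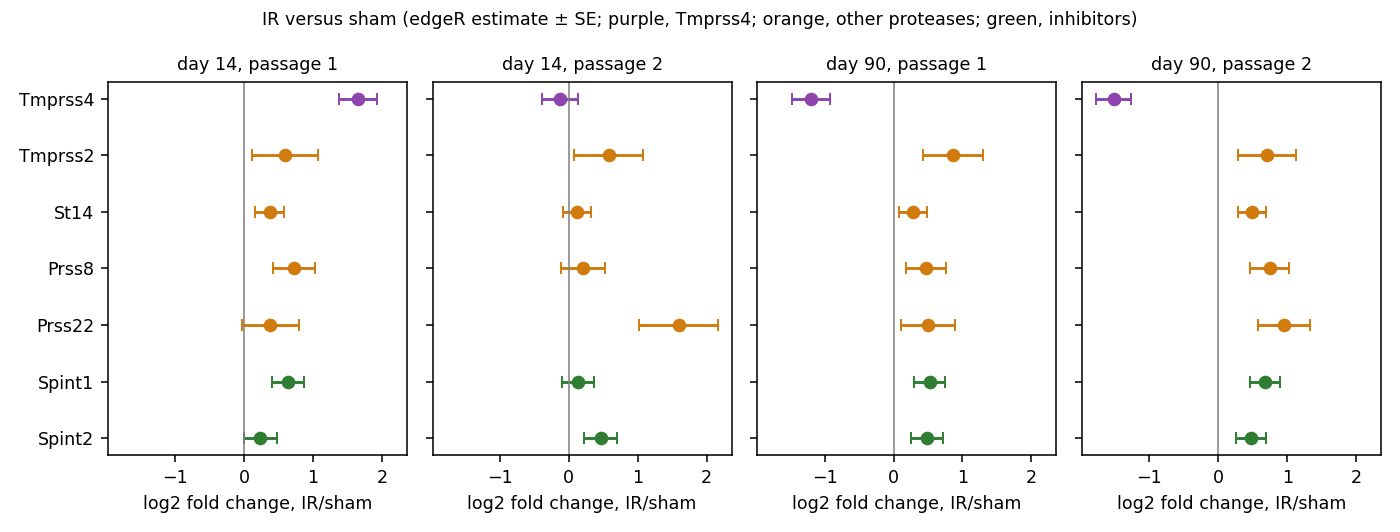
Log2 fold change of IR over sham (x axis; points with SE) for the 7 tested members in each day and passage. The 6 members other than Tmprss4 lie above 0 in all 4 panels (St14 and Spint1 at day 14 passage 2 not when some libraries were left out), while Tmprss4 runs from 1.66 at day 14 passage 1 to -1.52 at day 90 passage 2.

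At day 14 in passage 1, edgeR called 0 of the 6 members, against 0.341% of all tested genes. At an unadjusted p under 0.05 there were 2, against 11.0% of all genes, and DESeq2 called 0, against 1.16%. The libraries did not overlap, with IR higher, for 1 of the 6, against 8.84% of all genes. That was Spint2, which had 33.1, 37.8 and 34.9 CPM in sham and 42.8, 42.5 and 39.4 CPM in IR (log2 fold change 0.23, SE 0.24). The largest value was that of Prss8, with 20.9, 15.1 and 17.5 CPM in sham and 33.2, 40.6 and 16.4 CPM in IR (0.72, SE 0.30, adjusted p = 0.377 by edgeR). Spint1 had 45.9, 52.4 and 62.1 CPM in sham and 99.1, 93.5 and 58.6 CPM in IR (0.64, SE 0.23, adjusted p = 0.274 by edgeR). In IR replicate 3 the levels of Prss8, Spint1 and St14 (129 CPM, against 176 and 180) lay within the sham range, and Tmprss4 was also at its lowest there.

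At day 14 in passage 2, edgeR called 0 of the 6, against 0.0189% of all genes, 1 had an unadjusted p under 0.05, against 6.73%, and DESeq2 called 0, against 0.144%. Libraries did not overlap for 2 of the 6, against 6.06% of all genes. The first was Prss22, with 2.27, 2.36 and 1.72 CPM in sham, each 4 counts, and 5.16, 6.64 and 7.24 CPM in IR (log2 fold change 1.59, SE 0.57, adjusted p = 0.596 by edgeR). The second was Tmprss2, with 7.39, 8.27 and 12.9 CPM in sham and 13.2, 15.9 and 14.5 CPM in IR (0.58, SE 0.50). St14 (0.12, SE 0.21) and Spint1 (0.14, SE 0.23) were near 0 here and their sign depended on single libraries. Without IR replicate 3, which held 76.4 CPM of St14 against 162 and 144, the value of St14 was 0.39, and without IR replicate 1 it was -0.10. Without IR replicate 3 that of Spint1 was -0.047, and without the 3 libraries of deviating Gm42418 share it was -0.056. Without those 3 the value of St14 was 0.38, that of Prss8 0.33 (0.21 with them), Prss22 1.46, Tmprss2 0.56, Spint2 0.61 (0.46 with them) and Tmprss4 -0.070.

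At day 90 in passage 1, edgeR called 0 of the 6, against 0.0473% of all genes, 2 had an unadjusted p under 0.05, against 12.7%, and DESeq2 called 0, against 0.724%. Libraries did not overlap for 4 of the 6, St14, Prss22, Spint1 and Spint2, against 9.21% of all genes. St14 had 119, 134 and 155 CPM in sham and 157, 170 and 169 CPM in IR (log2 fold change 0.28, SE 0.20). Spint1 had 38.9, 51.7 and 54.3 CPM in sham and 54.7, 71.4 and 84.9 CPM in IR (0.52, SE 0.22, adjusted p = 0.320 by edgeR). Spint2 had 40.1, 31.0 and 39.6 CPM in sham and 43.8, 46.9 and 64.7 CPM in IR (0.49, SE 0.23). For each of the 3 the gap between the groups was narrow beside the spread within them. Tmprss2 had the largest value with the widest spread: 6.77, 23.6 and 23 CPM in sham and 12.4, 34.4 and 55.7 CPM in IR (0.86, SE 0.43, adjusted p = 0.415 by edgeR). In both groups replicate 1 was the lowest for Tmprss2. Without the 3 libraries of deviating Gm42418 share, of which sham replicate 1 is in this comparison, the value of Tmprss2 was 0.52, St14 0.19, Prss8 0.42 (0.47 with them), Prss22 0.48 (0.50 with them), Spint1 0.40, Spint2 0.54 and Tmprss4 -1.23. None of the 6 was called, against 1.56% of all genes in that fit.

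At day 90 in passage 2 the median difference from sham was the largest of the 4. By edgeR 0 of the 6 were called, against 4.92% of all genes, 5 had an unadjusted p under 0.05, against 18.3%, and DESeq2 called 0, against 5.95%. Libraries did not overlap for 3 of the 6, St14, Prss8 and Spint1, against 10.9% of all genes. St14 had 106, 101 and 123 CPM in sham and 128, 169 and 168 CPM in IR (log2 fold change 0.49, SE 0.20, adjusted p = 0.184 by edgeR). Prss8 had 15.9, 14.3 and 22.9 CPM in sham and 25.9, 30.1 and 32.8 CPM in IR (0.75, SE 0.28, adjusted p = 0.141 by edgeR). Spint1 had 34.7, 48.0 and 39.8 CPM in sham and 50.3, 72.7 and 73.8 CPM in IR (0.68, SE 0.22, adjusted p = 0.0808 by edgeR). In all 3 genes IR replicate 1 was the IR library nearest to sham.

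The same library stood nearer to sham in the remaining members. Prss22 had 10.8, 8.82 and 9.76 CPM in sham and 5.66, 30.5 and 21.9 CPM in IR, so that replicate 1 was below every sham library and the others well above (log2 fold change 0.95, SE 0.38). Spint2 had 34.1, 35.3 and 31.5 CPM in sham and 32.1, 52.6 and 56.4 CPM in IR (0.47, SE 0.22). Tmprss2 had 23.4, 17.6 and 12 CPM in sham and 15.8, 39.7 and 32.8 CPM in IR (0.71, SE 0.42). Without IR replicate 1, edgeR called 3 of the 6: Prss22 (1.41, adjusted p = 0.00186), Spint1 (0.84, adjusted p = 0.0229) and Spint2 (0.69, adjusted p = 0.0452), against 11% of all genes in that fit. Without all 3 libraries of deviating Gm42418 share it called 4, the same 3 and St14 (0.60, adjusted p = 0.0125 by edgeR), against 13.6% of all genes. The values of Prss8, Tmprss2 and Tmprss4 were then 0.83, 1.01 and -1.59. That replicate was also the highest of its group in the mean log2 CPM of basal duct markers (Krt5, Krt14, Krt15 and Trp63), at 8.41 against 6.18 and 6.48, and the part of this in the members' values was not tested. For Tmprss4 it did not stand apart (58.0 against 51.4 and 53.1 CPM).

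**Figure D3:**
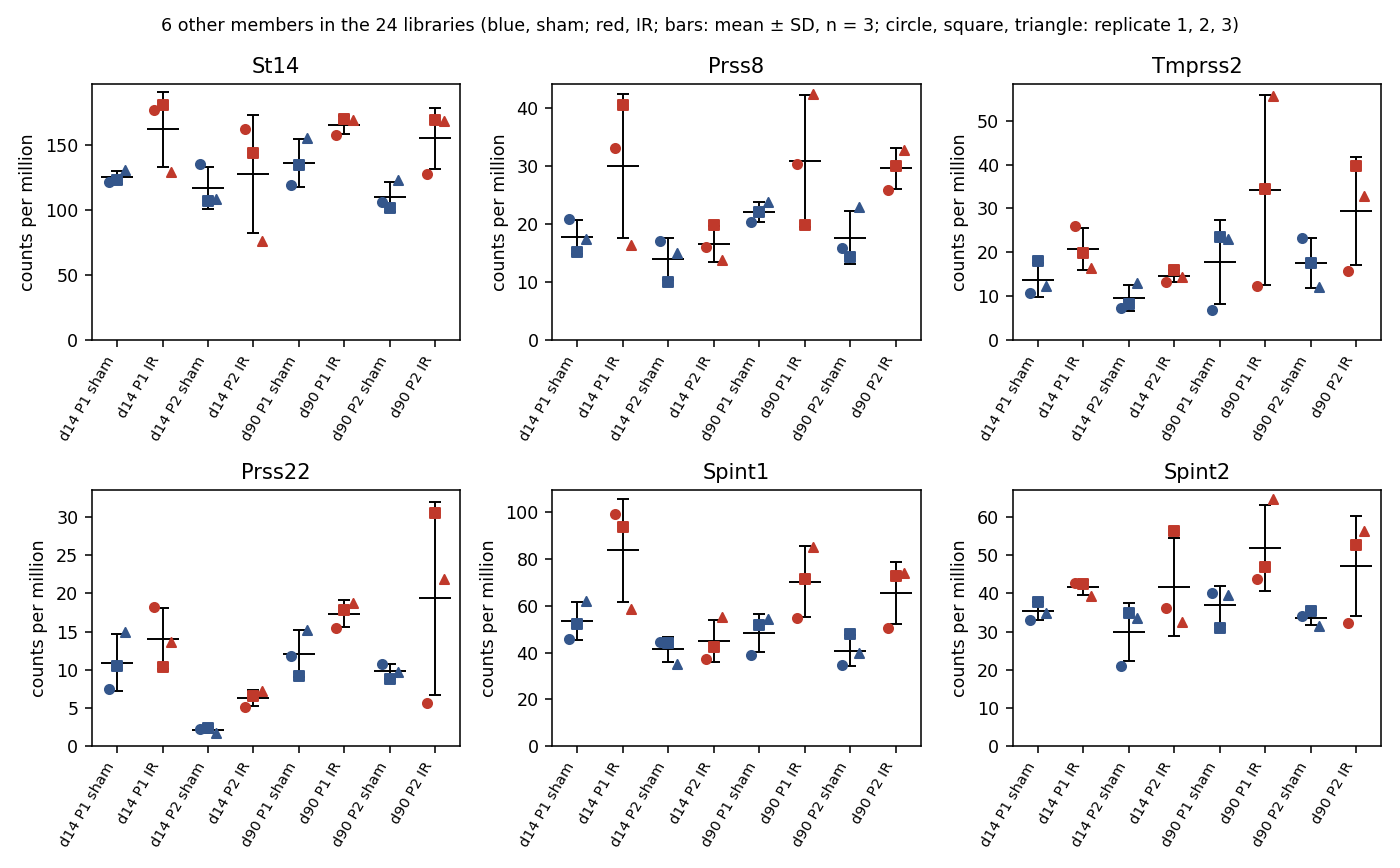
CPM (y axes, each from 0) of St14, Prss8, Tmprss2, Prss22, Spint1 and Spint2 in the 24 libraries, by group, with blue for sham, red for IR, symbols for replicates and bars for mean ± SD. Red points lie mostly above the blue ones beside them, and the red circle at day 90 passage 2 (replicate 1) lies lowest in its group for all 6 genes.

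Of the 7 tested members, Prss22 had the largest difference between passages. In sham at day 14 it had 7.43, 10.5 and 14.9 CPM in passage 1 and 2.27, 2.36 and 1.72 CPM in passage 2, a fall of 5.20-fold that was called (log2 fold change -2.38, SE 0.54, adjusted p = 0.0344 by edgeR). It was 1 of 6 members called, against 1.18% of all genes, 1 had an unadjusted p under 0.05, against 11.4%, and DESeq2 called 1, against 1.74%. The call rests on few counts, 4 in each passage 2 library. It was lost without sham replicate 2 or 3 of passage 1, or any 1 replicate of passage 2, with an adjusted p of up to 0.209 by edgeR and a log2 fold change of -2.46 to -2.08. In IR at day 14 Prss22 had 18.3, 10.4 and 13.6 CPM in passage 1 and 5.16, 6.64 and 7.24 CPM in passage 2, again without overlap but not called (-1.16, SE 0.44, adjusted p = 0.205 by edgeR).

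The other passage comparisons gave no call by edgeR among the 6. In IR at day 14 edgeR called 0, against 1.38% of all genes, 3 had an unadjusted p under 0.05, against 14.1%, and DESeq2 called 1, Spint1, against 2.47%. Spint1 had 99.1, 93.5 and 58.6 CPM in passage 1 and 37.3, 42.5 and 55.0 CPM in passage 2 (log2 fold change -0.88, SE 0.23, adjusted p = 0.0531 by edgeR). Without IR replicate 3 of passage 1 it was called by edgeR (-1.09, adjusted p = 0.0133), as was Prss8 (-1.16, adjusted p = 0.0303), against 2.57% of all genes in that fit. Without the 3 libraries of deviating Gm42418 share Spint1 was called too (-1.07, adjusted p = 0.0396 by edgeR), against 0.818%. In sham at day 90 edgeR called 0, against 1.36% of all genes, 0 had an unadjusted p under 0.05, against 14.0%, and DESeq2 called 0, against 2.01%; the 6 values ran from -0.34 to -0.05. In IR at day 90 edgeR called 0 of the 6 and 0% of all genes, 0 had an unadjusted p under 0.05, against 10.1%, and DESeq2 called 0, against 0.398%; the values ran from -0.20 to 0.13. In sham at day 14 the values of the 6 ran from -2.38 to -0.10, while that of Tmprss4 was above 0. In IR at day 14 they ran from -1.16 to -0.01, and the last, that of Spint2, turned to 0.14 without the 3 libraries of deviating Gm42418 share.

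Between the days the largest differences among the 6 were those of Prss22 in passage 2, in sham and in IR. In sham of passage 1, edgeR called 0 of the 6 and 0% of all genes, 0 had an unadjusted p under 0.05, against 9.70%, and DESeq2 called 0, against 0.859%, with no adjusted p for 1 of the 6. In sham of passage 2, edgeR called 0, against 0.426%, 1 had an unadjusted p under 0.05, against 13.7%, and DESeq2 called 1, Prss22, against 1.26%. Prss22 went there from 2.27, 2.36 and 1.72 CPM at day 14 to 10.8, 8.82 and 9.76 CPM at day 90 (log2 fold change 2.20, SE 0.52, adjusted p = 0.0626 by edgeR). In the fit without the 3 libraries of deviating Gm42418 share, none of which is in these groups, it was called (2.21, adjusted p = 0.00429 by edgeR), against 1.9% of all genes. In IR of passage 1, edgeR called 0, against 0.170%, 0 had an unadjusted p under 0.05, against 6.82%, and DESeq2 called 0, against 0.331%. In IR of passage 2, edgeR called 0, against 0.435%, 4 had an unadjusted p under 0.05, against 13.5%, and DESeq2 called 1, Prss22 (edgeR 1.56, SE 0.42, adjusted p = 0.0865), against 1.59%. Without day 90 IR replicate 1 the value of Prss22 was 2.02 and edgeR called it, against 3.44% of all genes in that fit, and without the 3 libraries it was 2.16 (adjusted p = 0.00419 by edgeR), against 2.86%. Prss8 (0.85, SE 0.29) and Tmprss2 (1.00, SE 0.45) were the next largest there.

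The make-up of the protease transcripts moved with Tmprss4. Its share of the counts of the 6 proteases was 19.1% ± 1.74 (SD, n = 3) in day 14 passage 1 sham and 34.4% ± 6.22 in IR. At day 90 it was 32.3% ± 3.20 in sham and 13.3% ± 3.48 in IR of passage 1, and 49.9% ± 1.47 in sham and 19.3% ± 4.84 in IR of passage 2. In each of these 3 pairs the libraries did not overlap. In day 14 passage 2 the shares overlapped (36.6% ± 4.70 and 32.1% ± 6.37). Tmprss4, selected on these libraries, is also part of the protease sum, so its share is not separate evidence from its level. Tmprss4 exceeded St14 in the 3 libraries of day 90 passage 2 sham (1.39 to 1.45 times) and in no other library of the series, where it reached at most 0.995 times St14.

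**Figure D4:**
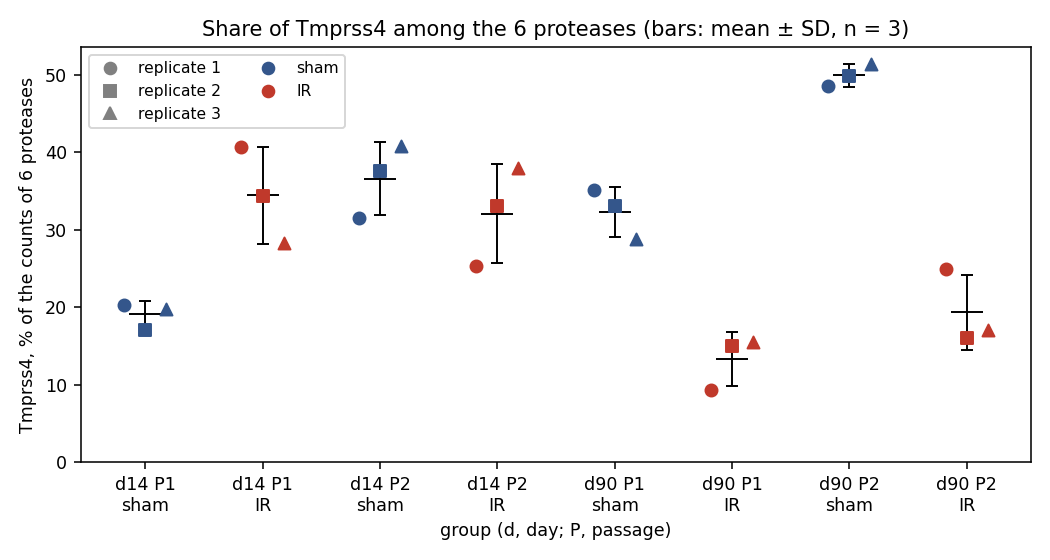
Tmprss4 as a percentage of the summed counts of 6 proteases (y axis, from 0) in the 24 libraries by group, with bars for mean ± SD. The day 90 passage 2 sham libraries sit between 48.5% and 51.4%, and those of IR between 16% and 24.9%.

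The ratio of protease transcripts, Tmprss4 included, to inhibitor transcripts was lower after IR at day 90, while the protease sums overlapped. The ratio of the summed CPM of the 6 proteases to that of Spint1 and Spint2 was 3.26 ± 0.16 (SD, n = 3) in sham and 2.37 ± 0.08 in IR of passage 1, and 4.24 ± 0.76 and 2.59 ± 0.22 in passage 2, both without overlap. The protease sums were 278 ± 31.2 CPM in sham and 288 ± 50.8 CPM in IR of passage 1, and 312 ± 32.8 and 288 ± 48.0 CPM in passage 2. The inhibitor sums were 85.2 ± 7.76 and 122 ± 25.8 CPM in passage 1, without overlap, and 74.5 ± 7.70 and 113 ± 26.3 CPM in passage 2, with overlap. At day 14 the ratio was 2.35 ± 0.18 in sham and 2.79 ± 0.27 in IR of passage 1, and 3.20 ± 0.55 and 2.83 ± 0.75 in passage 2. Tmprss4, which was selected on these libraries, is part of the protease sums, so these ratios are not separate evidence. In the day 90 sums the mean of Tmprss4 was 89.1 CPM in sham and 39.3 CPM in IR of passage 1. In passage 2 it was 156 CPM in sham and 54.2 CPM in IR. Each of the other proteases had a higher mean after IR in both passages. The ratios carry no test and were not computed without Tmprss4, so they show no shift of the other proteases against the inhibitors. They count transcripts and say nothing of protein or activity.

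Across the 24 libraries the 6 other members correlated with each other and not with Tmprss4, while within groups the ranges were alike. Pearson correlations of log2 CPM among the 6 were 0.51 to 0.75, highest for St14 with Prss8, while those of Tmprss4 with them were -0.22 to -0.03. Within groups, as deviations from the group mean, Tmprss4 correlated with them at 0.046 to 0.55 and they with each other at 0.048 to 0.57. Without the 3 libraries of deviating Gm42418 share the correlations over the other 21 were 0.54 to 0.80 among the 6 and -0.24 to -0.018 with Tmprss4. The 24 points share groups, library depth and the scaling, so these are descriptions. The correlation with the mean log2 CPM of the basal duct list was -0.67 to -0.80 for the 6, and with the luminal duct list (Krt7, Krt8, Krt18, Krt19 and Elf3) 0.40 to 0.69. For Tmprss4 these were 0.37 and -0.40, and its correlation with the Gm42418 share was -0.48.

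Across the 24 libraries Tmprss4 moved with a list of squamous markers, several of which are made as epithelial cells flatten and cornify. Its correlation with the mean log2 CPM of that list was 0.82. Of the 8 genes 7 passed the filter, and Krt1 had 1 count in all. Gene by gene the correlation was 0.53 (Krt10) to 0.84 (Cdsn), and within groups 0.12 (Ivl) to 0.62 (Sbsn). Tmprss4 was selected on its group differences, which enter the values over the 24 libraries. The summed list ran from 712 to 803 CPM in day 14 passage 1 sham and 1203 to 3257 CPM in IR, from 1091 to 2779 CPM in day 90 passage 1 sham and 423 to 730 CPM in IR, and from 1814 to 4077 CPM in day 90 passage 2 sham and 316 to 958 CPM in IR. In day 14 passage 2 it ran from 2307 to 2942 CPM in sham and 962 to 1542 CPM in IR, where Tmprss4 overlapped. Most of the summed squamous list was Krt6a, with a mean of 1410 CPM over the 24 libraries, against 94.2 CPM for Sprr1b, the next highest. Krt10, Cdsn and Ivl averaged 10.7, 6.34 and 4.55 CPM. The summed ranges thus mostly give the level of Krt6a and do not show that cells cornified. The summed basal duct list ran from 4419 to 7346 CPM in day 90 passage 2 sham and 1320.3 to 4770.1 CPM in IR, and the luminal list from 346 to 396 CPM and 839 to 1309.9 CPM. The part of these cell states in the members' values was not tested.

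**Figure D5:**
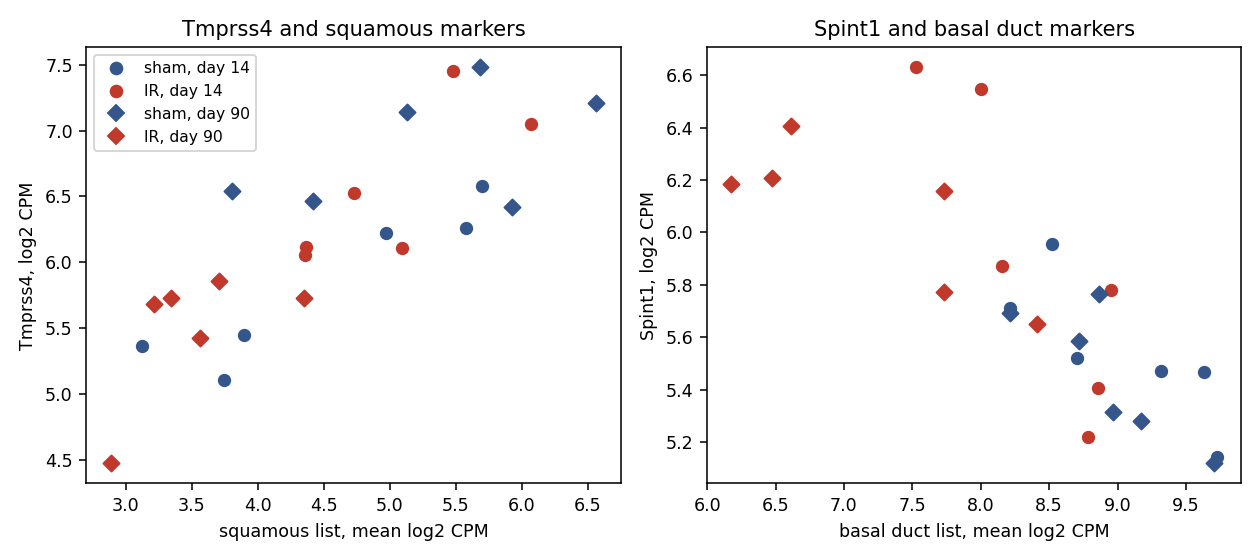
Left, log2 CPM of Tmprss4 (y axis) against the mean log2 CPM of the squamous list (x axis); right, log2 CPM of Spint1 against the mean log2 CPM of the basal duct list; each point is a library, with colours for treatment and shapes for day. Tmprss4 climbs with the squamous list (r = 0.82) and Spint1 declines with the basal duct list (r = -0.80).

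Of 10148 named genes ranked by their Pearson correlation with Tmprss4 over the 24 libraries, the most alike were Galnt7 (0.86), Cdsn (0.84), Sbsn (0.81), S100a8 (0.80) and Gramd3 (0.80). Over the 8 group means their correlations were, in this order, 0.93, 0.93, 0.87, 0.87 and 0.94, and within groups 0.72, 0.61, 0.62, 0.39 and 0.34. By the group means Sbsn ranked 60 and S100a8 62, so the ranking depends on the measure. Galnt7 encodes an enzyme of mucin-type sugar chain synthesis, Cdsn encodes corneodesmosin of cornified cell junctions, and S100a8 encodes a calprotectin subunit. Cdsn and Sbsn also stand on the squamous list. Among the least alike were Hspg2 (-0.72), which encodes perlecan, and Kalrn (-0.72). The median correlation over all tested genes was -0.02. S100a8 spanned from 2.82 CPM (day 14 passage 1 sham) to 108 CPM (day 90 passage 2 sham), and Galnt7 from 28.1 CPM (day 90 passage 1 IR) to 54.7 CPM (day 90 passage 2 sham).

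Other genes of the same systems were taken from 4 lists. Of 23 other membrane serine proteases 22 were in the files and 4 were tested. At day 90 in passage 2, 0 rose and 2 fell after IR, against 4.92% of all genes called: Tmprss11d, also called human airway trypsin-like protease, went from 14.8 ± 6.68 to 1.41 ± 0.87 CPM (log2 fold change -3.30, adjusted p = 0.0218 by edgeR) and Tmprss11g from 6.93 ± 0.51 to 0.99 ± 0.64 CPM (-2.75, adjusted p = 0.0255 by edgeR). The list's median was -2.95. Tmprss13, the most abundant of the list at 11.0 CPM, had a log2 fold change of -0.37 (adjusted p = 0.640 by edgeR). In the other 3 comparisons of IR with sham 0 of the 4 were called, with medians of 2.31 (day 14 passage 1), -0.65 (day 14 passage 2) and -0.42 (day 90 passage 1).

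Of 19 substrates and receptors of these proteases 12 were tested, and 2 rose at day 90 in passage 2, against 4.92% of all genes called, both subunits of the epithelial sodium channel. Scnn1a went from 4.25 ± 1.08 to 27.5 ± 16.5 CPM (log2 fold change 2.67, adjusted p = 0.00150 by edgeR), and Scnn1b from 0.33 ± 0.04 to 4.17 ± 3.23 CPM (adjusted p = 0.0333 by edgeR), with 1 count in each sham library. The list's median was 0.45. Epcam, a matriptase-sensitive adhesion protein and among the most abundant of the list, had a value of 0.02. None of the 12 was called in the other 3 comparisons, with medians of 0.24 (day 14 passage 1), 0.07 (day 14 passage 2) and 0.08 (day 90 passage 1).

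A list of other serine protease inhibitors and related family members held 29 genes, of which 18 were tested. Of these, 3 rose and 4 fell at day 90 in passage 2 (median -0.79), against 4.92% of all genes called. Serpinb6b went from 18.0 ± 8.0 to 132 ± 94.2 CPM (log2 fold change 2.85, adjusted p = 0.00175 by edgeR) and Serpinb9, which inhibits granzyme B, from 31.6 ± 5.88 to 215 ± 161 CPM (2.76, adjusted p = 0.00290 by edgeR). Wfdc2, a secreted protein of salivary ducts, went from 712 ± 84.4 to 1158 ± 105 CPM (0.70, adjusted p = 0.0391 by edgeR), and it rose at day 14 in passage 2 as well (1.35, adjusted p = 0.00881 by edgeR). The 4 that fell were Serpinb1a (-2.53, adjusted p = 0.00951 by edgeR), Serpinb11 (-3.39, adjusted p = 0.0123 by edgeR), Spink5, the kallikrein inhibitor LEKTI (-3.60, from 558 ± 547 to 46.1 ± 10.5 CPM, adjusted p = 0.0123 by edgeR), and Serpinb3a, named after its values were seen, which went from 18.4 CPM to 0 in all 3 IR libraries (adjusted p = 0.0360 by edgeR). Serpinb genes have close copies, among which reads may have been split, so these are uncertain. Slpi had a value of -0.57. No other call was made in the other 3 comparisons, with medians of 0.39 (day 14 passage 1), -0.03 (day 14 passage 2) and -0.11 (day 90 passage 1).

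Of 13 secreted kallikreins 5 were tested, and 0 rose and 2 fell at day 90 in passage 2, against 4.92% of all genes called. Klk8 went from 14.7 ± 5.48 to 4.71 ± 0.31 CPM (log2 fold change -1.63, adjusted p = 0.0178 by edgeR) and Klk14 from 9.21 ± 15.4 to 0.10 ± 0.17 CPM (adjusted p = 0.0398 by edgeR), where 1 sham library held 27.0 CPM. Klk1 is the abundant tissue kallikrein of salivary glands and has close copies of its own. Its low level at day 90 passage 2, a mean of 0.83 CPM for sham and 0.80 CPM for IR, did not hold for passage 1. There the sham and IR means were 44.9 and 57.1 CPM for day 14, and 47.1 and 36.1 CPM for day 90. Single libraries of passage 1 ranged widely, from 3.49 to 101 CPM. Day 14 passage 2 lay between, with means of 11.1 CPM (sham) and 7.72 CPM (IR). In the other 3 comparisons of IR with sham none of the 5 was called. In those the list's medians (3.70, -0.39 and -3.31 for day 14 passage 1, day 14 passage 2 and day 90 passage 1, and -2.73 at day 90 passage 2) rest on genes with libraries at 0, so they depend on the fit's prior count.

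The calls in these lists at day 90 in passage 2 depended on single libraries, with adjusted p-values of up to 0.816 by edgeR, while every gene named as called there kept its direction under all alternatives. Over all genes the calls in that comparison numbered 137 to 1194 with 1 library left out, against 520 with all. The log2 fold changes of those that lost calls mostly moved little, as for Tmprss11d (-3.60 to -2.93). Those of Spink5 (-4.01 to -2.42) and Klk14 (-7.36 to -1.16) moved more. Scnn1a, Serpinb6b and Serpinb9 kept their call without any 1 library. In the fit of only the compared groups these 3 lost it (adjusted p of up to 0.0876 by edgeR). Serpinb1a, Spink5, Klk8, Wfdc2 and Serpinb3a lost theirs in that fit too. With the Gm42418 share as a covariate, Tmprss11g, Scnn1b, Wfdc2 and Serpinb3a lost theirs. Total counts removed the call of Wfdc2, and leaving out the 3 libraries of deviating Gm42418 share removed that of Klk14. Without sham replicate 1, Tmprss11d, Tmprss11g, Scnn1b, Wfdc2, Spink5, Klk8 and Klk14 lost theirs, without sham replicate 2 Scnn1b and Wfdc2, and without sham replicate 3 Tmprss11g, Scnn1b and Wfdc2. Without IR replicate 2 or 3, Tmprss11d, Tmprss11g, Scnn1b, Wfdc2, Serpinb11, Spink5, Klk8 and Klk14 lost theirs, without IR replicate 2 Serpinb1a too, and without IR replicate 1 Klk14. The call of Wfdc2 at day 14 in passage 2 was lost without sham replicate 2 or 3 or IR replicate 1 or 2. It was also lost in the fit of only the compared groups. Serpinb3a lost its call without sham replicate 1 or 3 or any 1 IR replicate (adjusted p of up to 0.143 by edgeR).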

How the data were processed

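Read counts per gene were deposited by the authors, 1 file per library and 24 in all, with no normalization. Libraries were made with the QuantSeq 3′ kit, per the labels' protocols. The submitters' processing notes name bcl2fastq and GRCm39; the sources used here name no aligner, counting tool, annotation or strand setting, so overlapping or antisense genes and close copies could have shared or split reads. Each file held 47643 genes and 5 lines naming no gene, which entered neither library sizes nor tests: unassigned reads were 11.5% to 26.5% of a library and ambiguous reads 0.259% to 0.451%. Symbols came from a reference table (47224 identifiers matched) of another build, so no coordinates are printed. Coding bases were read from GENCODE vM21 transcripts (GRCm38), as the longest frame from ATG to a stop. Counts of replicates were compared by chi-square, which came to 2.07 to 26.7 per degree of freedom; all pairs thus exceeded sampling noise and no libraries were merged.

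Counts were tested with edgeR 4.0.16 in R 4.3.3 (quasi-likelihood test, TMM factors, filterByExpr on the 8 groups, 1 mean per group over all 24 libraries, two-sided). P-values were adjusted by Benjamini-Hochberg over the 10563 tested genes with calls at 0.05. The SE is the absolute log2 fold change over the square root of F. CPM use the TMM factors, ± is the SD of 3 libraries, and log2 CPM in correlations have a prior count of 2. There were 16 comparisons, 12 of them between groups of libraries; calls in the 4 interactions are not used. Controls are shared between comparisons of IR, passage and day. The scripts were tested on simulated counts. The members and gene lists were chosen with earlier results of these data known. All members are reported; from each other list the text names up to 3 called genes per direction with the smallest p in each comparison of IR with sham, and the 2 with the highest mean CPM; likewise the 5 genes most and 3 least correlated with Tmprss4, predicted genes left out. Of the genes this rule names, 2 are not reported here.

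Alternatives were median-of-ratios factors, DESeq2 1.42.0, total counts, no filter or 5 CPM in 3 libraries, the replicate number as a block, the Gm42418 share as a covariate, ribosomal RNA genes left out, only the compared groups, each library left out in turn, and, added after seeing the data, 3 libraries left out together.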

Additional observations from a re-analysis of the deposited data

Results flagged for a closer look

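The difference between IR and sham organoids in Tmprss4 had opposite signs at the 2 days in passage 1. At day 14 every IR library was above every sham library (log2 fold change 1.66), and at day 90 every IR library was below every sham library (-1.20), so the values differed by -2.85. Because Tmprss4 was selected on these libraries, the difference was not tested.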

How the results depend on the processing

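Of 64 values of members given singly, 60 kept their sign under every alternative. Below 0 at day 14 passage 2, IR against sham, were Spint1 without the 3 libraries of deviating Gm42418 share (-0.056; -0.047 to 0.25 when 1 library was left out) and St14 (-0.10 to 0.39 when 1 library was left out). Spint2 between passages in IR at day 14 was 0.14 without the 3 libraries (-0.28 to 0.14 when 1 was left out), and Prss22 between days in sham of passage 1 was -0.10 to 0.44 when 1 was left out. For IR at day 90 passage 2, 1 of the 6 members other than Tmprss4 was called with no filter, against 4.58% of all genes. The number called was 4 without the 3 libraries, against 13.6%, and 0 to 3 with 1 library left out. Calls over all genes with 1 library left out are in the next paragraph. Between passages the number of members called was 0 to 1 in sham at day 14 with 1 library left out. In IR at day 14 it was 1 with no filter (3.06% of all genes), the replicate block (1.55%) and the Gm42418 covariate (2.07%). It was also 1 by DESeq2 (2.47%) and without the 3 libraries (0.818%), and 0 to 2 with 1 library left out. Between days in sham of passage 2 it was 1 with total counts (2.89% of all genes), no filter (1.87%) and only the compared groups (0.284%). It was also 1 by DESeq2 (1.26%) and without the 3 libraries (1.9%). In IR of passage 2 it was 2 with no filter (2.46% of all genes), 1 by DESeq2 (1.59%) and 1 without the 3 libraries (2.86%). With 1 library left out it was 0 to 1. The cause was not tested.

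Whether replicate numbers pair the libraries was not settled. In 0 of 12 comparisons were all 3 same-number correlations over 0.1 (-0.29 to 0.39). Some libraries correlated best with their own number and others did not. For IR against sham at day 14 passage 2 the values were 0.37, -0.18 and 0.31 for replicates 1, 2 and 3. A threshold on all 3 cannot exclude a pairing, and the main fit used none. Among the members the replicate block changed 1 call, that of Spint1 between passages in IR at day 14 (-0.91, adjusted p = 0.0413 by edgeR), and the genes called for IR were 29, 1, 4 and 559 with it at day 14 passage 1 and 2 and day 90 passage 1 and 2. Total counts in place of TMM moved the median log2 fold change of all genes by -0.19 for IR at day 90 passage 1 and by -0.11 in passage 2; all members kept their sign there. Genes called for IR numbered 36 at day 14 passage 1 (29 to 460 over the alternatives, 0 to 146 with 1 library left out), 2 at day 14 passage 2 (0 to 200, 0 to 38), 5 at day 90 passage 1 (0 to 465, 0 to 25) and 520 at day 90 passage 2 (85 to 1461, 137 to 1194). Between passages they numbered 125 (108 to 539, 20 to 95) and 144 (92 to 704, 26 to 109) in sham at day 14 and 90, and 146 (24 to 697, 10 to 278) and 0 (0 to 369, 0 to 33) in IR. Between days they numbered 0 (0 to 223, 0 to 15) and 45 (1 to 427, 3 to 47) in sham of passage 1 and 2, and 18 (3 to 180, 0 to 31) and 46 (0 to 560, 0 to 372) in IR. Depth limits Prss27 and, in day 14 passage 2 sham, Prss22.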
